A study of Setaria viridis with 11 samples.

Results

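The 5 transcripts described here are Si001253m, Si038742m, Si001803m, Si006593m and Si029660m, all from leaves of the C4 grass *Setaria viridis*. They were picked, with the heat result known, as transcripts filed under the Calvin cycle in the study's annotated transcript table whose level was higher in heat-stressed than in control plants. They are 5 of the 60 transcripts in that functional bin and 5 of the 40599 identifiers counted. All 5 passed the filter on low counts, as did 32 of the 55 other transcripts of the bin. The difference between heat and control chose them, so their fold changes are given below as a description and without a test.

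The selection rule was worded to leave out Rubisco activase, aldolase and phosphoglycerate kinase, and the annotation goes against that wording. The table files Si001253m and Si038742m under phosphoglycerate kinase and Si001803m under aldolase. Si006593m stands under fructose-bisphosphatase, and Si029660m under a sub-bin of proteins that interact with Rubisco. The description of Si038742m carries both the name PGK1, from its Arabidopsis match, and the words tRNA methyltransferase, from its rice match, so its enzyme activity is uncertain. A SET domain transcript of the Rubisco-interacting sub-bin, Si021853m, met the wording of the rule but was not among the 5, and its values are given with the rest of the bin.

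The Calvin-Benson-Bassham (CBB) cycle fixes CO2 through Rubisco, reduces the product to triose phosphate and rebuilds the CO2 acceptor. Phosphoglycerate kinase acts in the reduction phase, aldolase joins triose phosphates to sugar bisphosphates, and fructose-bisphosphatase makes the irreversible step to fructose 6-phosphate. Phosphoglycerate kinase and aldolase also serve glycolysis, and plants hold several isoforms of each in plastid and cytosol. In C4 grasses Rubisco works in the bundle sheath, while part of the reduction phase runs in the mesophyll, and a leaf sample holds both tissues.

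The samples were 6 heat-stressed and 5 control plants of wild-type genotype A10. Heat plants were moved at an age of 2 weeks to 42 °C by day and 32 °C by night, while control plants stayed at 28 °C and 20 °C by the sample labels. Other passages of the study give a slightly warmer control night. Leaves of both groups were taken at day 28, under 16 h of light and 8 h of dark, 380 ppm CO2 and 1000 μmol quanta m-2 s-1. Midsections of fully expanded leaves were pooled before RNA extraction, and the heat plants had a growth chamber of their own, so chamber and temperature cannot be told apart. In such bulk samples, fewer cells of a type and less RNA per cell cannot be told apart either.

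The counts added up to 34731849 to 47441261 in heat plants and 34362084 to 54011056 in control plants. The plastid transcript psbA (Si020824m), for a core protein of photosystem II, took 46.1% to 48.5% of them in heat plants and 61.8% to 69.6% in control plants. Levels are therefore CPM (counts scaled to a common library size) after TMM scaling, a method that sets the bulk of transcripts equal between libraries. They are not corrected for transcript length, so levels of different transcripts are not compared. Leaf transcripts such as those of phosphoenolpyruvate carboxylase and carbonic anhydrase were present in every plant (4416 to 12566 and 945 to 2515 CPM in heat plants, 11132 to 16479 and 2484 to 3532 CPM in control plants). Alignments with several places were 20.2% to 30.8% of all alignments and counts in heat plants, against 15.4% to 59.1% in control plants, with the highest share in control plant 2. Without that plant the log2 fold changes were 1.84 for Si001253m, 0.52 for Si038742m, 0.50 for Si001803m, 0.80 for Si006593m and 0.39 for Si029660m. Of the 18065 transcripts tested, 63.1% passed the threshold, 32.2% higher and 30.9% lower under heat (edgeR's quasi-likelihood test, Benjamini-Hochberg adjusted p under 0.05). In 23.5% of them every heat plant lay above every control plant.

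In 3 of the 5 transcripts the heat plants all lay above the control plants, and in the other 2 the groups overlapped. The fitted fold change of heat over control ran from 1.32-fold for Si029660m to 3.38-fold for Si001253m. Since a higher level under heat chose these transcripts, neither count is read against the background.

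**Figure D1:**
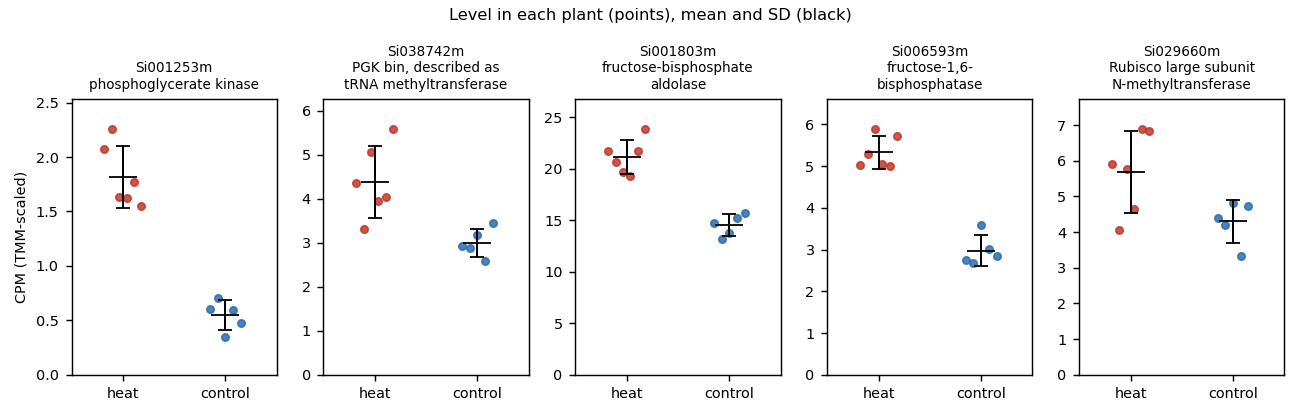
Level of each of the 5 transcripts (TMM-scaled CPM, vertical axis from 0, each panel with its own scale) in single heat plants (red, n = 6) and control plants (blue, n = 5), with mean and SD in black. The groups do not overlap for Si001253m, Si001803m and Si006593m, and they overlap for Si038742m and Si029660m.

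Si001253m (locus Seita.5G349200) is a phosphoglycerate kinase, the enzyme that phosphorylates 3-phosphoglycerate with ATP. Its closest Arabidopsis gene in the table, AT1G56190, encodes a plastid form. In heat plants its level ran from 1.55 to 2.26 CPM with a median of 1.70, and in control plants 1 to 5 it was 0.602, 0.708, 0.350, 0.599 and 0.475 CPM. Heat plants 1 and 2 were the highest and control plant 3 the lowest, with no overlap between the groups. The mean level was 1.82 ± 0.286 CPM in heat plants (SD, n = 6) and 0.547 ± 0.138 CPM in control plants (SD, n = 5). The fitted log2 fold change was 1.76 (SE 0.20), or 3.38-fold, the highest of the 5.

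These levels rest on few reads. Heat plants had 80 to 147 counts of Si001253m each, and control plants had 12 to 21. The 12 counts of control plant 3 have an exact Poisson 95% interval of 6.20 to 20.96 counts, which covers counting error only and ends just under the 21 counts of control plant 4. The coefficient of variation (CV) between control plants was 25.2%, and counting error at that depth alone gives 25.2%. In heat plants the CV was 15.7%, against 9.71% from counting error. Si021917m, the phosphoglycerate kinase with the same Arabidopsis and rice matches, was lower under heat. The counting kept only reads with one place in the genome, so reads common to both copies are missing and the split between them is uncertain.

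Si038742m (locus Seita.9G239800) shares the phosphoglycerate kinase sub-bin through its Arabidopsis match AT3G12780, a plastid phosphoglycerate kinase. In heat plants its level ran from 3.32 to 5.59 CPM with a median of 4.205, and in control plants 1 to 5 it was 2.94, 2.88, 3.18, 2.60 and 3.44 CPM. Heat plant 2 lay below control plant 5, and the 5 other heat plants lay above all control plants. The means were 4.39 ± 0.819 CPM in heat plants and 3.01 ± 0.319 CPM in control plants (SD), a log2 fold change of 0.54 (SE 0.15) or 1.46-fold. Counts were 200 to 305 in heat plants and 57 to 116 in control plants. The heat plants were spread more widely than the control plants, with a CV of 18.6% against 10.6%, where counting error alone gives 6.31% and 10.5%.

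Si001803m (locus Seita.5G079400) is an aldolase whose Arabidopsis match, AT2G01140, encodes one of the plastid isoforms. In heat plants its level ran from 19.3 to 23.8 CPM with a median of 21.2, and in control plants 1 to 5 it was 14.7, 13.2, 13.7, 15.3 and 15.7 CPM. Every heat plant lay above every control plant, the nearest being heat plant 4 and control plant 5. The means were 21.1 ± 1.66 CPM in heat plants and 14.5 ± 1.05 CPM in control plants (SD), a log2 fold change of 0.54 (SE 0.08) or 1.46-fold. With 972 to 1443 counts in heat plants and 261 to 535 in control plants, this is the most deeply covered of the 5 transcripts. Plants of a group differed little, with a CV of 7.83% in heat plants and 7.21% in control plants, where counting error gives 2.87% and 4.78%. The biological coefficient of variation that edgeR fitted to it, 0.113, was the lowest of the 5 and at percentile 2.70 of all tested transcripts, whose median was 0.199.

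Si006593m (locus Seita.4G186100) is a fructose-bisphosphatase. Its Arabidopsis match, AT5G64380, encodes the second plastid isoform of that species, apart from the main enzyme of the cycle. In heat plants its level ran from 5.00 to 5.89 CPM with a median of 5.17, and in control plants 1 to 5 it was 2.75, 2.68, 3.59, 3.02 and 2.85 CPM. The groups did not overlap, and even the highest control plant, number 3, lay below the lowest heat plant, number 5. The means were 5.33 ± 0.387 CPM in heat plants and 2.98 ± 0.365 CPM in control plants (SD), a log2 fold change of 0.84 (SE 0.11) or 1.78-fold. Counts were 255 to 354 in heat plants and 53 to 123 in control plants. The CV of 7.26% in heat plants was close to the 5.71% of counting error alone, and in control plants it was 12.3% against 10.5%.

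Si029660m is annotated as the N-methyltransferase of the Rubisco large subunit, with AT1G14030 as its Arabidopsis match. In pea this enzyme methylates a lysine near the amino terminus of the large subunit, while the Arabidopsis enzyme is known to act on plastid aldolases. In heat plants its level ran from 4.05 to 6.89 CPM with a median of 5.83, and in control plants 1 to 5 it was 4.41, 4.19, 4.81, 3.34 and 4.75 CPM. Heat plants 2 and 4 lay within the range of the control plants, and the 4 other heat plants lay above it. The means were 5.68 ± 1.15 CPM in heat plants and 4.30 ± 0.594 CPM in control plants (SD), a log2 fold change of 0.40 (SE 0.16) or 1.32-fold, the smallest of the 5. Counts were 234 to 393 in heat plants and 83 to 165 in control plants. Between heat plants the CV was 20.2% and between control plants 13.8%, where counting error gives 5.56% and 8.83%.

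The size of these differences depends on the scaling. With library size alone, which counts the large psbA share of the control plants in full, the log2 fold changes were 2.82 for Si001253m, 1.59 for Si038742m, 1.59 for Si001803m, 1.87 for Si006593m and 1.45 for Si029660m. The median over all tested transcripts was then 1.07, against 0.02 with TMM. Relative to that median the 5 values were 1.75, 0.52, 0.52, 0.80 and 0.38 with library size, and 1.73, 0.52, 0.52, 0.81 and 0.38 with TMM.

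Within their own sub-bins the 5 transcripts took a larger share of the counts in heat plants, a measure that the scaling does not touch. For Si006593m the share of all fructose-bisphosphatase counts was 11.4% ± 2.87 in heat plants (SD, n = 6) and 1.91% ± 0.239 in control plants (SD, n = 5), with ranges of 7.66% to 16.2% and 1.66% to 2.25%. The other fructose-bisphosphatases together had 43.8 ± 12.3 CPM in heat plants and 153 ± 6.94 CPM in control plants, so both sides of the ratio moved. Nearly all of that is Si002088m.

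For the aldolase Si001803m the share of the aldolase counts was 1.77% ± 0.551 in heat plants and 0.415% ± 0.0451 in control plants, where the other 6 aldolases summed to 1265 ± 375 and 3508 ± 410 CPM. For Si029660m the share of the Rubisco-interacting sub-bin was 1.37% ± 0.211 in heat plants and 0.464% ± 0.0751 in control plants. The rest of that sub-bin summed to 419 ± 120 CPM in heat plants and 935 ± 165 CPM in control plants, so the share moved more than the 1.32-fold of Si029660m itself, whose own levels overlapped. Among the phosphoglycerate kinases, Si001253m had 0.980% ± 0.408 in heat plants and 0.172% ± 0.0637 in control plants, and Si038742m had 2.24% ± 0.323 and 0.917% ± 0.109. The other phosphoglycerate kinases summed to 192 ± 40.5 CPM in heat plants and 328 ± 51.2 CPM in control plants. In none of the 5 did the shares of heat and control plants overlap. The 5 were chosen for being higher under heat, and the rest of each sub-bin had a lower mean sum there. This separation is therefore a description only, and no such count was made for other transcripts. All 5 remained a minor part of their sub-bin's counts in every heat plant, the highest being the 16.2% of Si006593m in heat plant 2.

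**Figure D2:**
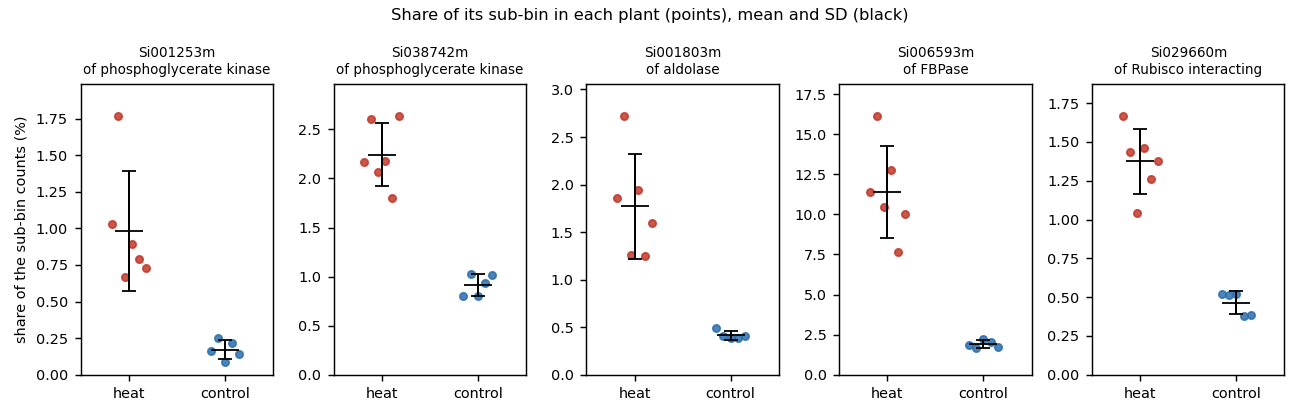
Share of the counts of its own sub-bin (percent, vertical axis from 0, each panel with its own scale) that each of the 5 transcripts took in single heat plants (red, n = 6) and control plants (blue, n = 5), with mean and SD in black. Heat plants lie above control plants in every panel, and heat plant 2, the first or second highest point in 4 of the panels, reaches 16.2% for Si006593m.

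The rest of the bin was tested, and its make-up leans towards lower levels because 5 transcripts were taken out for being higher. Of the 32 tested, 4 were higher under heat, 23 were lower and 5 did not pass the threshold, against 32.2% higher and 30.9% lower over all transcripts tested. Over the whole bin, with the 5 put back, 9 of 37 were higher and 23 lower, and the median log2 fold change was -0.62. For the 32 alone, the log2 fold changes ran from -2.08 to 6.48 with a median of -0.91, while the median was 0.02 over all transcripts tested. With library size alone 13 were higher and 5 lower, and 8 of the 23 lower transcripts had a positive log2 fold change. The other 23 transcripts of the bin were not tested, and none of them had more than 16 counts in a plant.

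Each of the 4 sub-bins that hold the 5 transcripts also held one that was lower under heat. Among the phosphoglycerate kinases, Si006583m, whose Arabidopsis match is the cytosolic isoform, averaged 17.4 ± 2.46 CPM in heat plants and 4.31 ± 0.555 CPM in control plants, a log2 fold change of 2.02 (SE 0.12, edgeR adjusted p = 1.4e-08). Si021917m, whose Arabidopsis match is the same plastid form as that of Si001253m, averaged 175 ± 41.9 CPM in heat plants and 324 ± 50.8 CPM in control plants. Its log2 fold change was -0.89 (SE 0.17, edgeR adjusted p = 4.59e-04), and it turned to 0.15 with library size alone.

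Of the 6 other aldolases, 1 was higher, 4 were lower and 1 did not pass. The higher one, Si017614m, had a log2 fold change of 1.22 (edgeR adjusted p = 1.27e-05). The lower ones were Si026480m (-2.004) and Si003349m (-1.88), both named FBA2, Si006745m (-1.61), and Si010312m (-1.21), named FBA1. Si005058m stood at 0.07 (SE 0.14, edgeR adjusted p = 0.705). The only other fructose-bisphosphatase tested, Si002088m, averaged 43.8 ± 12.3 CPM in heat plants and 153 ± 6.96 CPM in control plants, a log2 fold change of -1.80 (SE 0.17, edgeR adjusted p = 5.94e-07).

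Around Si029660m, the Rubisco-interacting sub-bin had 2 other transcripts higher and 2 lower. Rubisco activase removes inhibitory sugar phosphates from the active site of Rubisco. One activase transcript, Si027442m, had 35.7 CPM in heat plants and 0.403 CPM in control plants, a log2 fold change of 6.48 (SE 0.25, edgeR adjusted p = 3.44e-10). The other, Si026402m, was lower at -1.30 (edgeR adjusted p = 5.99e-05), as was Si022121m at -1.35 (edgeR adjusted p = 5.79e-05). Si021853m matches PTAC14 of Arabidopsis, a SET domain protein of the plastid transcription complex. It averaged 5.53 ± 0.688 CPM in heat plants and 3.64 ± 0.511 CPM in control plants, a log2 fold change of 0.60 (SE 0.13, edgeR adjusted p = 0.00108).

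In the sub-bins without any of the 5 no transcript was higher under heat past the threshold. The Rubisco large subunit Si020845m was lower at -0.61 (edgeR adjusted p = 0.00474), which became 0.45 with library size alone. All 5 tested small subunit transcripts were lower with TMM, the lowest being Si023461m at -2.08 (edgeR adjusted p = 1.33e-05), and 2 of them had positive values with library size alone. All 3 phosphoribulokinase transcripts were lower as well with TMM, 1 of them positive with library size alone. That enzyme makes the CO2 acceptor.

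**Figure D3:**
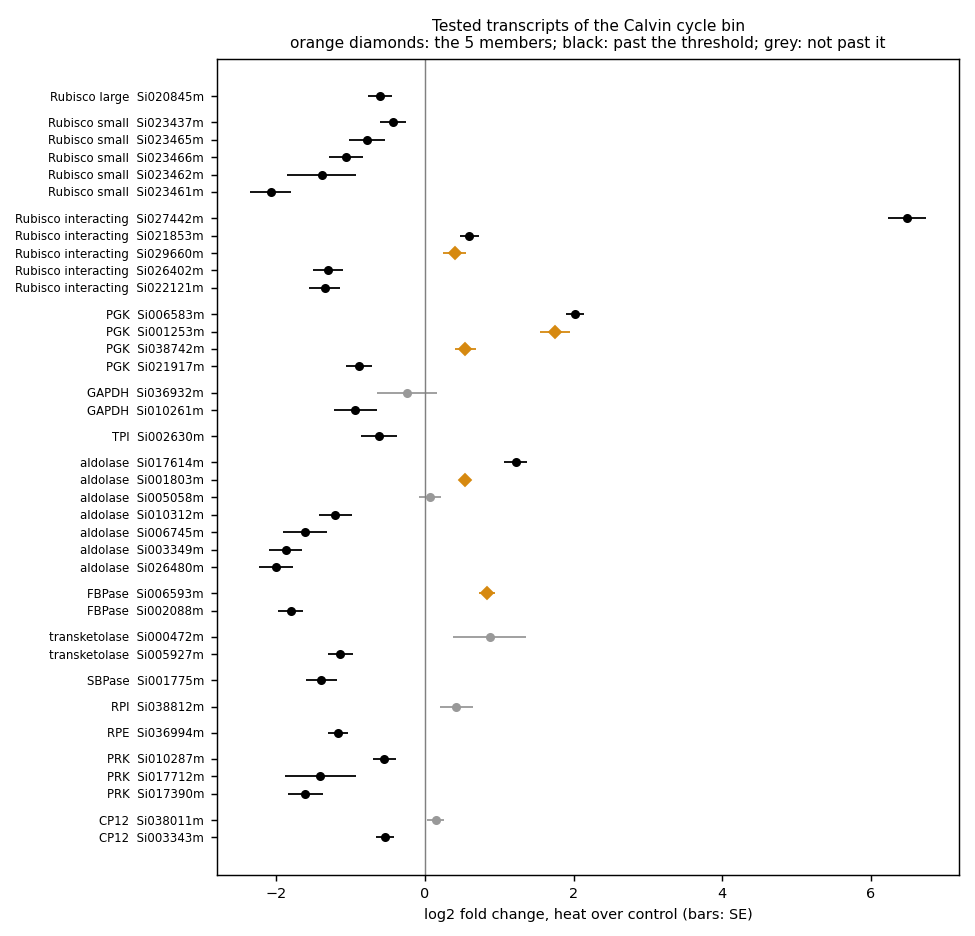
Log2 fold change of heat over control (horizontal axis, bars are SE) for the 37 tested transcripts of the Calvin cycle bin, grouped by sub-bin. The 5 transcripts described here (orange diamonds) lie between 0.40 and 1.76, and among the others 4 that passed the threshold lie right of 0 and 23 left of it, with Si027442m at 6.48.

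Si029660m had the lowest log2 fold change of the 5, at 0.40 (SE 0.16). Some transcripts outside the 5 had positive values without passing the threshold. Si038812m, a ribose-5-phosphate isomerase of the regeneration phase, had 0.42 (SE 0.22, edgeR adjusted p = 0.117). A transketolase, Si000472m, had 0.87 (SE 0.49, edgeR adjusted p = 0.134), the highest value in the other sub-bins. A CP12 transcript, Si038011m, whose protein binds phosphoribulokinase and glyceraldehyde-3-phosphate dehydrogenase in the dark, had 0.14 (SE 0.12). A subunit of that dehydrogenase, Si036932m, had -0.24 (SE 0.41). Si038812m and Si000472m had log2 fold changes above that of Si029660m, with wider errors.

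The 5 transcripts did not vary together from plant to plant. Deviations from the mean of the own group, in log2 CPM over the 11 plants, correlated most closely between Si029660m and Si038742m (Pearson's r = 0.77) and were most opposed between Si001253m and Si006593m (r = -0.74). These are descriptions over 11 plants that share libraries and scaling. The r of -0.74 leans on control plant 3, where Si001253m (-0.55) and Si006593m (0.27) each lay furthest from the group mean. Si001253m had 12 counts in that plant, and its spread between control plants was no wider than counting error alone gives. Si029660m and Si038742m were both lowest in heat plant 2 (-0.46 and -0.38) and both low in control plant 4 (-0.35 and -0.20). Si001253m was highest in heat plant 2 (0.32), and Si006593m and Si001803m were close to the group mean there (-0.01 and -0.03).

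Heat plant 2 also held the lowest heat level of 23 of the 32 other tested transcripts of the bin. Each of the other heat plants held the lowest level of 0 to 5 of them. This count was not made over all tested transcripts. The median deviation of the 32 in heat plant 2 was -0.63 on the log2 scale, against 0.01 over all tested transcripts. What set this plant apart was not tested. Without it the log2 fold changes were 1.72 for Si001253m, 0.65 for Si038742m, 0.58 for Si001803m, 0.87 for Si006593m and 0.52 for Si029660m.

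**Figure D4:**
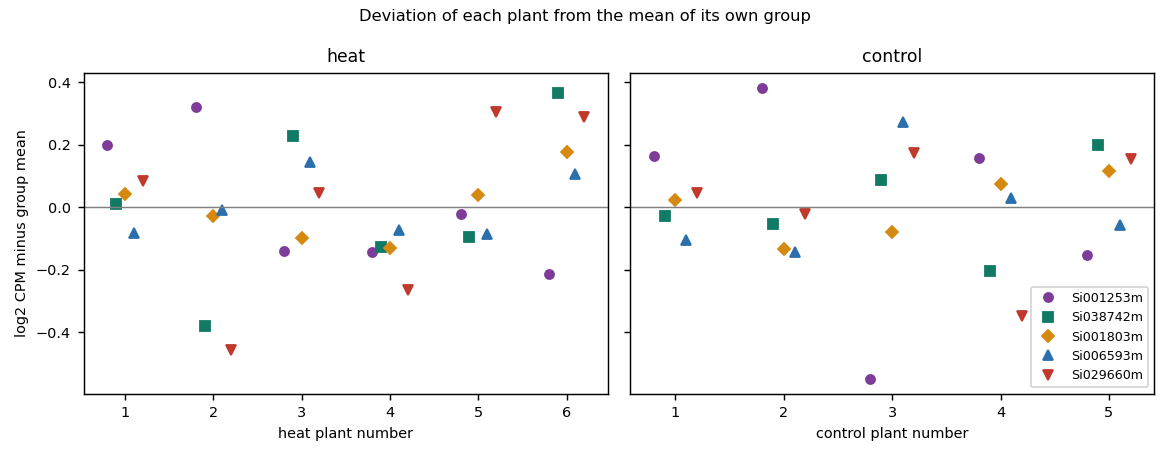
Deviation of each plant from the mean of its own group (log2 CPM, vertical axis) for the 5 transcripts, in the 6 heat plants (left) and the 5 control plants (right). In heat plant 2, Si029660m and Si038742m lie at -0.46 and -0.38 while Si001253m lies at 0.32.

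Those closest to each of the 5 were sought by the same correlation of deviations, among 235 annotated transcripts only. These were the tested ones among 387 annotated rows used here, out of 18065 transcripts tested. That list limits which transcripts can be named. Si029660m was closest to the ribose-5-phosphate isomerase Si038812m (r = 0.93) and to Si018111m, the light-harvesting protein LHCA5 (r = 0.91). Unlike Si029660m, Si018111m was lower under heat, at a log2 fold change of -1.51 (edgeR adjusted p = 8.39e-06). Si038812m had 5.56 CPM in heat plant 2 and 8.34 to 12.7 CPM in the other heat plants, and 4.36 CPM in control plant 4 against 7.03 to 9.46 CPM in the other control plants. Si038742m was closest to Si015577m, a subunit of a plastid NADPH-dependent oxidoreductase by its annotation (r = 0.88), and to the phosphoribulokinase Si017390m (r = 0.85). Both of these were lower under heat, at log2 fold changes of -2.06 and -1.61 (edgeR adjusted p = 4.59e-07 and 4.4e-05), so likeness within groups did not go with the same direction between groups.

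For the other 3 the likeness was weaker. Si001803m was closest to a glycine cleavage H protein, Si018557m (r = 0.79), and the ferredoxin FD3, Si031391m (r = 0.73). Si006593m was closest to Si037354m, named PIFI (r = 0.78), and another H protein, Si023468m (r = 0.69). Both had low levels, so their deviations rest on few counts. The mean of Si037354m was 0.219 CPM in heat plants and 0.140 CPM in control plants. That of Si023468m was 0.229 and 0.335 CPM. Si001253m was closest to the plastid phosphate translocator Si030085m (r = 0.72) and to Si000808m, named NADP-ME3 for an NADP-dependent malic enzyme (r = 0.68). Si000808m was low too, with means of 1.19 CPM in heat plants and 0.227 CPM in control plants. It had 3.62 CPM in heat plant 2 and 0.309 to 0.962 CPM in the other heat plants. Means in heat and control plants were 0.943 and 1.11 CPM for Si018557m, and 1.60 and 1.82 CPM for Si030085m. As many as 352 of all tested transcripts reached the r of Si023468m with Si006593m, and 9 reached that of Si038812m with Si029660m.

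The deposited read pairs and single reads are separate reads of the same libraries. Their sum chose the 5 transcripts, so the values of each kind describe that sum and add no support to it. From read pairs alone the log2 fold change was 1.89 for Si001253m, 0.54 for Si038742m, 0.53 for Si001803m, 0.88 for Si006593m and 0.41 for Si029660m, with SEs of 0.09 to 0.21. From single reads alone it was 0.68 (SE 0.29) for Si038742m, 0.69 (SE 0.16) for Si001803m, 0.51 (SE 0.26) for Si006593m and 0.36 (SE 0.28) for Si029660m. Si001253m, with 58 single reads over all heat plants and 13 over all control plants, was under the filter and could not be fitted.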

How the data were processed

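RNA was extracted from leaves of 6 heat-stressed and 5 control plants, depleted of ribosomal RNA and made into libraries that the methods call strand-specific. After trimming by Trimmomatic, the authors used TopHat2 with up to 2 mismatches against the *S. italica* genome (v2.1), and exon counts came from HTSeq (union mode). Whether counting used strand is not given in the sources used here. The deposited values are counts without normalization, 2 files per plant (read pairs, single reads), which were added. In 10 files of read pairs, 20 more columns hold copies and sums of these counts and were not used. The 5 summary lines per file were left out of library sizes; ambiguous reads were 7.99% to 9.55% of all alignments and counts in heat plants and 3.05% to 8.48% in control plants, and reads on no feature were 11.2% to 12.6% and 5.16% to 8.86%.

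Transcripts were filtered with filterByExpr of edgeR 4.0.16 (18065 kept), scaled with TMM and compared by edgeR's quasi-likelihood test in R 4.3.3, with Benjamini-Hochberg adjustment over all of them and a threshold of 0.05. Standard errors are the log2 fold change over the square root of F. Log2 CPM used a prior count of 2. The fit was tested on simulated data. Alternatives covered the scaling (DESeq2 1.42.0 size factors, upper quartile, library size), the filter, the DESeq2 Wald test, either kind of reads, a replicate block and each plant left out. Figures were drawn with matplotlib 3.10.9 in Python 3.11.15.

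Plant numbers come from the labels of both groups. Deviations of same-numbered plants correlated at 0.042 on average (-0.0235 to 0.152 over 5 pairs), against -0.00885 for other pairs, so plants were treated as unpaired. Plants of a group are separate plants, and no library was identical to another.

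The 5 transcripts and the lists around them were chosen with earlier results of these data known. The text names those 5 and the other tested transcripts of their 4 sub-bins. Of the other sub-bins it names the highest and lowest, with any that passed upwards. It also names the 2 annotated transcripts closest to each of the 5, leaf markers and the other transcripts of the bin that did not pass. The last were chosen after their values were seen. Locus names, sub-bins and matches come from the study's annotation. Intervals cover counting error only.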

Additional observations from a re-analysis of the deposited data

Results flagged for a closer look

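Among 20 groups of plants checked, 10 of levels and 10 of shares, 2 held a plant that stood apart from the rest, and chance gives about 1 in 20. The groups share plants and counts and are not independent, so that rate is only a rough guide. The share of phosphoglycerate kinase counts on Si001253m was 1.77% in heat plant 2, against 0.664% to 1.03% in the other heat plants. That plant also held the lowest heat level of 23 of the 32 other tested transcripts of the bin, a count not made over all tested transcripts. The share of aldolase counts on Si001803m was 0.494% in control plant 1, against 0.387% to 0.404% in the other control plants.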

How the results depend on the processing

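All 5 log2 fold changes stayed positive under each of the alternatives that could be fitted. These refits reuse the plants and the contrast that chose the 5, so the sign describes that choice and adds no support to it. With library size alone, 13216 transcripts were higher and 1385 lower, against 5818 and 5583 with TMM, and 85.4% of log2 fold changes were positive, against 51.0%. Of the rest of the bin 13 were higher and 5 lower, and the 5 log2 fold changes were 2.82 (Si001253m), 1.59 (Si001803m), 1.87 (Si006593m), 1.45 (Si029660m) and 1.59 (Si038742m). With library size without psbA, an alternative chosen after seeing the data, 3364 transcripts were lower, 8 of the rest of the bin higher and 14 lower, and the values were 2.15, 0.93, 1.22, 0.79 and 0.93 in the same order. The median of all transcripts was then 0.41. From single reads alone 3004 transcripts were higher and 2792 lower, out of 10434 that passed the filter. Si001803m was then at 0.69 and Si006593m at 0.51, and the differences in share of sub-bin counts were 0.510 percentage points for Si001253m, against 0.808, and 0.671 for Si029660m, against 0.910. With at least 10 counts in every plant Si001803m was at 0.65.

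Leaving out each plant in turn gave 5563 to 5742 transcripts higher and 5100 to 5515 lower, 4 to 5 of the rest of the bin higher and 21 to 22 lower, and log2 fold changes of 1.62 to 1.84 for Si001253m, 0.50 to 0.60 for Si001803m, 0.80 to 0.91 for Si006593m, 0.31 to 0.52 for Si029660m and 0.49 to 0.65 for Si038742m.

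With the plant number as a replicate block, 5575 transcripts were higher and 5350 lower, 4 of the rest of the bin were higher and 22 lower, and the 5 values were 1.79, 0.51, 0.82, 0.33 and 0.46. The plants share only a number, and this pairing is not part of the design.

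Depth limits Si001253m most, with 12 to 21 counts per control plant.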
